A study of Homo sapiens with 24 samples.

Results

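Messenger RNA levels of 9 genes of prostaglandin synthesis, breakdown and sensing were compared between β-CATENIN-expressing and β-CATENIN-deficient clones of 3 colorectal cancer (CRC) cell lines. The genes were chosen by name, as *PLA2G4A*, *PTGS1*, *PTGS2*, *PTGES*, *PTGES2*, *PTGES3*, *HPGD*, *PTGER2* and *PTGER4*, and all 9 were found among the 58051 gene identifiers of the count files. HT29, HCT116 and SW480 are established human CRC lines. HT29 and SW480 carry *APC* mutations, and HCT116 carries an activating *CTNNB1* mutation, so that WNT/β-CATENIN signaling is switched on in each line before any editing. In the knock-out (KO) clones, CRISPR/Cas9 had removed exon 7 from both alleles of *CTNNB1*, the gene for β-CATENIN, which shifts the reading frame. The wild-type (WT) clones had gone through the same cloning and kept the *CTNNB1* alleles of their line. The groups were HT29 WT (clones WT 11 and WT 40), HT29 KO (KO 28 and KO 38), HCT116 WT (WT 4 and WT 6), HCT116 KO (KO 44 and KO 47), SW480 WT (WT 4 and WT 5) and SW480 KO (KO 17 and KO 21). Sequencing covered all clones once in a round A and once in a round B, which gave 4 libraries per group and 24 in all. All cells grew in the same serum-containing medium.

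Prostaglandins are signaling lipids. Cytosolic phospholipase A2 (PLA2G4A) frees arachidonic acid from membranes, the cyclooxygenases PTGS1 (COX-1) and PTGS2 (COX-2) turn it into prostaglandin H2, and the synthases PTGES, PTGES2 and PTGES3 make prostaglandin E2 from that. HPGD, 15-hydroxyprostaglandin dehydrogenase, inactivates prostaglandin E2, whereas the receptors PTGER2 and PTGER4 pass its signal on by raising cyclic AMP. In colorectal tumors, COX-2 is known to be frequently raised and HPGD to be frequently lost, and aspirin acts on the pathway by blocking both cyclooxygenases.

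On GRCh37, the build of the deposited counts, the genes of synthesis upstream of prostaglandin H2 lie as *PLA2G4A* (ENSG00000116711) at chr1:186798081-186958113 on the plus strand, *PTGS1* (ENSG00000095303) at chr9:125132809-125157982 on the plus strand and *PTGS2* (ENSG00000073756) at chr1:186640923-186650054 on the minus strand. The synthases lie as *PTGES* (ENSG00000148344) at chr9:132500610-132515321 on the minus strand, *PTGES2* (ENSG00000148334) at chr9:130882972-130890741 on the minus strand and *PTGES3* (ENSG00000110958) at chr12:57057125-57082192 on the minus strand. The others lie as *HPGD* (ENSG00000164120) at chr4:175411326-175444305 on the minus strand, *PTGER2* (ENSG00000125384) at chr14:52781023-52795316 on the plus strand and *PTGER4* (ENSG00000171522) at chr5:40680017-40693837 on the plus strand.

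Values are normalized counts, that is reads per gene divided by 1 size factor per library, and 22297049 to 29068378 reads per library fell on genes. *CTNNB1* followed the labels in every library, with 5883 to 6113 normalized counts in HT29 WT and 256 to 337 in HT29 KO, and with KO means at 4.98%, 1.83% and 2.18% of WT in HT29, HCT116 and SW480. The 9 epithelial markers, such as *EPCAM* and keratins, summed to 131453 to 750601 normalized counts per library. The 6 immune markers summed to 23398 to 27683 in HT29 WT and 17662 to 31383 in HT29 KO, nearly all of it *LYZ*, the gene for lysozyme (24677 ± 1832 in WT and 21624 ± 6478 in KO), with *PTPRC*, *CD3E* and *CD68* at 3 reads or fewer in every HT29 library. Of the 6 fibroblast markers, 4 were at 3 reads or fewer in every library of HT29 WT and 4 in every library of HT29 KO, but their summed level was 14.2 to 26.9 in HT29 WT and 109 to 1212 in HT29 KO, with *LUM* higher in KO. The part of these markers in the results that follow was not tested. A gene was tested within a line where at least 4 of its 8 libraries reached 10 normalized counts. Genes with an adjusted p under 0.05 were taken to have risen or fallen. Differences are in log2 of the normalized count plus 1, which understates the change of low genes. The 4 libraries of a group come from 2 clones, so that the p-values partly measure the spread between rounds of the same clone. Where values are given by clone, round A comes first and round B second. In bulk RNA, fewer cells with a transcript and less transcript per cell cannot be told apart. Floors of 3 reads cover counting error only.

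The 3 lines differed in which genes of the pathway they expressed. Per kb of exon, which allows genes to be set side by side, *PTGES3*, a cochaperone that also has prostaglandin E synthase activity, had the highest level of the 9 genes in every line, with 6631 ± 1025 normalized counts per kb in HT29, 7560.2 ± 569.8 in HCT116 and 5936 ± 239.8 in SW480 (mean ± SD, n = 4 libraries). *PTGES2* came next, with 652 ± 103, 671 ± 64.5 and 371 ± 21.6 per kb. Below these levels the order differed between lines. In HT29 the order went on with *PLA2G4A* (401 ± 125 per kb), *HPGD* (179.6 ± 30.9) and *PTGS2* (105 ± 83.1). In HCT116 it went on with *PTGES* (267 ± 38.9 per kb) and *PLA2G4A* (144 ± 6.32), and *HPGD* was lowest of the 9 at 1.08 ± 0.738. In SW480 *HPGD* came after these at 253 ± 42.6 per kb, and *PTGS2* was lowest at 0.134 ± 0.169.

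Between WT lines, 58.4% of 18609 tested genes differed between HT29 and HCT116, 60.3% between HT29 and SW480, and 60.5% between HCT116 and SW480. Among the 9 genes, 6, 6 and 7 differed, near these shares. *PTGS2*, the inducible cyclooxygenase, was graded over the lines. It had 239 and 131 in WT 11 and 998 and 942 in WT 40 of HT29, 15.2 to 48.3 normalized counts over the 4 WT libraries of HCT116, and at most 3 reads in each WT library of SW480. HT29 was above HCT116 by 3.95 on the log2 scale (SE 0.55, adjusted p = 1.66e-06), and HCT116 was at least 9.74-fold above SW480 when the latter was set to 3 reads per library. *PLA2G4A* showed the same order, with 1154 ± 359.6 normalized counts in HT29, 416 ± 18.2 in HCT116 and 1.84 to 3.03 in SW480, where no library held more than 3 reads. The HT29 mean was at least 397-fold above the SW480 floor of 3 reads, and it differed from HCT116 by 1.42 on the log2 scale (SE 0.28, adjusted p = 1.44e-04).

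*HPGD* followed another order, with SW480 (1399 ± 236 normalized counts) and HT29 (993 ± 171) far above HCT116 (6.00 ± 4.08). SW480 and HT29 did not pass the test against each other, with a difference of −0.50 (95% interval −1.71 to 0.72) for HT29 minus SW480. The HT29 mean was 166 times that of HCT116 (adjusted p = 2.17e-10), where 1 of the 4 libraries had no read. *PTGES*, the inducible prostaglandin E synthase, was lowest in HT29 with 39.7 ± 34.8 normalized counts, against 212 ± 16.4 in SW480 and 504 ± 73.7 in HCT116. HCT116 and SW480 did not pass the test against each other (adjusted p = 0.239), although their libraries did not overlap. The difference between HT29 and SW480, −2.97 with an adjusted p of 0.00654, lost its call with clones as units (adjusted p = 0.105). *PTGS1*, the constitutive cyclooxygenase, was at 119 ± 64.9 in HT29 and 121 ± 38.7 in HCT116, which did not pass the test (adjusted p = 0.856), and at 6.54 ± 3.48 in SW480, which was below both. The receptor *PTGER4* was highest in HCT116 with 72.4 ± 10.8, above HT29 (5.76 ± 5.90) by 12.6 times and above SW480 (7.07 ± 2.40) by 10.2 times. HT29 and SW480 did not pass the test against each other for this gene (adjusted p = 0.311). *PTGER2* was low in all WT clones, with 0 to 22.2 normalized counts in HCT116 and 3.68 to 10.8 in SW480. Each HT29 WT library held 3 reads or fewer of it. It was lower in HT29 than in HCT116, by 1.98 on the log2 scale (adjusted p = 0.0238). Against SW480 it was lower by 1.91 (adjusted p = 0.0277), and each of these calls was lost in 6 of 29 alternatives. *PTGES2* was lower in SW480 than in HT29, by 0.80 on the log2 scale (SE 0.12, adjusted p = 4.13e-06), and than in HCT116, by 0.85 on the log2 scale (SE 0.12, adjusted p = 1.83e-06), and *PTGES3* was lower in SW480 than in HCT116, by 0.35 on the log2 scale (SE 0.12, adjusted p = 0.0146).

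**Figure D1:**
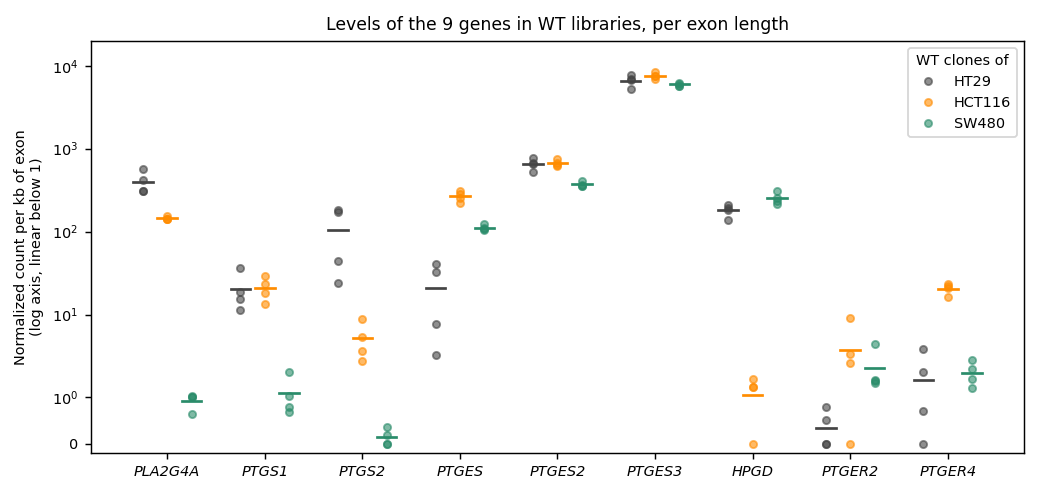
Normalized count per kb of exon of the 9 genes (vertical axis, logarithmic above 1 and linear below) in the WT libraries of HT29, HCT116 and SW480. Each point is a library and each bar a mean of 4 libraries. *PTGES3* and *PTGES2* are the highest in every line, and *HPGD* in HCT116 and *PTGS2* and *PLA2G4A* in SW480 lie near the bottom of the axis.

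In HT29, *HPGD* was the only one of the 7 genes tested that passed, and it rose. HT29 WT libraries had 1053 and 754 in WT 11 and 1009.7 and 1156 in WT 40, and HT29 KO libraries had 6023 and 5631 in KO 28 and 7209 and 6542 in KO 38. All 4 KO libraries lay above all 4 WT libraries, and KO 28 minus KO 38 was −0.24 on the log2 scale, which did not pass (95% interval −0.71 to 0.24). The mean went from 993 ± 171 to 6351 ± 683, a 6.39-fold rise of 2.69 on the log2 scale (SE 0.17, adjusted p = 1.18e-04). In this line 2.56% of 14921 tested genes passed, 2.08% higher and 0.476% lower in KO. The call was kept in 21 of 22 alternative settings and was lost when the mean of a clone counted as 1 sample (adjusted p = 0.159), a setting in which no gene of HT29 passed in limma and 849 had an unadjusted p under 0.05, *HPGD* among them. In the same KO libraries the epithelial markers summed to 463045 to 750601 against 322777 to 453709 in WT, with *KRT19* and *KRT20* risen, and the part of these markers and of *LUM* in the *HPGD* difference was not tested.

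In SW480, *HPGD* changed in the opposite direction. SW480 WT libraries had 1291 and 1173 in WT 4 and 1721 and 1412 in WT 5, and SW480 KO libraries had 198 and 158 in KO 17 and 839 and 629.8 in KO 21. The groups did not overlap, but the KO clones stood far apart, with a difference of −2.04 on the log2 scale for KO 17 minus KO 21 (adjusted p = 1.01e-06), which was the only difference among the 7 tested genes between these clones, where 28.0% of all tested genes passed. Over both clones *HPGD* fell by 1.95 on the log2 scale (SE 0.51, adjusted p = 0.0131). Without KO 17 the difference was −0.93 (adjusted p = 0.00167) and without KO 21 it was −2.96, and the call was lost with clones as units (adjusted p = 0.0918), without a filter on low values (adjusted p = 0.0624) and without WT 5 (adjusted p = 0.0761). Between the WT clones of SW480 the difference was −0.34 for WT 4 minus WT 5 (adjusted p = 0.213), and none of the 7 tested genes passed between them in limma or in edgeR (1, *HPGD*, had an unadjusted p under 0.05), against 8.88% of all tested genes.

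In HCT116, *HPGD* stayed near the floor and was not tested. WT libraries had 9.17 and 7.42 in WT 4 and 7.39 and 0 in WT 6, and KO libraries had 30.5 and 8.48 in KO 44 and 34.3 and 16.2 in KO 47. The groups overlapped, with means of 6.00 ± 4.08 in WT and 22.3 ± 12.1 in KO. Without the filter on low values *HPGD* and *PTGES* passed in HCT116. The opposite changes of HT29 and SW480 were compared directly. The KO effect on *HPGD* in HT29 exceeded that in SW480 by 4.63 on the log2 scale (SE 0.83, adjusted p = 3.49e-04), a comparison in which 15.8% of 18609 genes passed, and the difference held in all 29 alternative settings. A gene annotated on the other strand, ENSG00000251584, shares 5.68% of the *HPGD* exon bases, and the libraries did not mark strand, but it held at most 4.59 normalized counts in any library.

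The start of *HPGD* lies on the minus strand of chromosome 4. RefSeq gives 2 promoter windows for it, of which the GC-rich one is shown because *HPGD* is, of the 9, the gene whose change differed most between lines. The 250 bases before the start, chr4:174522489-174522738 on GRCh38.p14, minus strand, read 5′ to 3′ with motif matches in capitals as follows.
HPGD: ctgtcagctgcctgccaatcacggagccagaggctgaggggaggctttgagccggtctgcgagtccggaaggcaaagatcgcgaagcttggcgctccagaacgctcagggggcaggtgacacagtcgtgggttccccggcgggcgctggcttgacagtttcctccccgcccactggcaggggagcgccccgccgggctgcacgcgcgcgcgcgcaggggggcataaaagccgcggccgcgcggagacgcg
The stretch was 70.8% GC and held no match, on either strand, to the TCF/LEF core CTTTGAT or CTTTGTT, the cAMP response element TGACGTCA or the TATA box TATAAA. An E-box CACGTG lay beyond it, in the 50 bases after the start. Of 35116 promoter windows of 300 bases, 7.61% held the TCF/LEF core, 1.85% the cAMP response element, 7.26% the E-box and 11.5% the TATA box. No window of the 9 genes held the TCF/LEF core or the cAMP response element in these letters.

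In SW480, *PTGS1* rose in KO from a very low level. WT libraries had 6.06 and 4.59 in WT 4 and 11.6 and 3.91 in WT 5, and KO libraries had 63.0 and 56.0 in KO 17 and 33.6 and 41.3 in KO 21. Every KO library was above every WT library, and the gene rose by 2.77 on the log2 scale (SE 0.35, adjusted p = 8.72e-05), with the call kept in all 21 alternatives that could be computed. *PTGS1* reached the level for testing in SW480 only through its KO libraries, so that being tested depended on the rise itself. SW480 was the line with the most changes in all, as 48.1% of 16325 tested genes passed, 26.1% higher and 22.1% lower in KO. In HT29, WT libraries had 66.3 and 89.2 in WT 11 and 107 and 213 in WT 40, and KO libraries had 1153 and 1080.2 in KO 28 and 290.3 and 235 in KO 38. The HT29 groups did not overlap either, but the difference of 2.31 on the log2 scale (SE 0.60, adjusted p = 0.0882) did not pass. KO 28 was above KO 38 by 2.09 on the log2 scale (SE 0.34, adjusted p = 0.00604), a comparison in which 16.0% of tested genes passed. Without KO 38 the difference was 3.36 (adjusted p = 0.00660), and without KO 28 it was 1.27 (adjusted p = 0.149), and over the alternatives the adjusted p ran from 0.000552 to 0.843. In HCT116, *PTGS1* ran from 77.0 to 167 in WT and 119 to 216 in KO (adjusted p = 0.260).

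*PTGS2* did not pass the test in HT29 or HCT116 and was too low to be tested in SW480. In HT29 the WT clones stood apart. WT 40 had 998 and 942 normalized counts, whereas WT 11 had 239 and 131, within the range of the KO libraries, 110.2 to 285. The WT clones differed by −2.45 on the log2 scale (SE 0.34, adjusted p = 0.00392) for WT 11 minus WT 40, in a comparison in which 9.02% of tested genes passed. The KO against WT difference was −1.06 on the log2 scale (SE 0.67, adjusted p = 0.456), with a 95% interval of −2.57 to 0.45. It became 0.16 without WT 40 (adjusted p = 0.943) and −2.28 without WT 11 (adjusted p = 0.0466). In HCT116, *PTGS2* had 15.2 to 48.3 normalized counts in WT and 29.5 to 59.9 in KO (adjusted p = 0.262). In SW480, 3 reads in all were counted over the WT libraries and 1 over the KO libraries, so that no difference could be detected at this depth. The antisense gene *PACERR*, which overlaps 3.99% of the *PTGS2* exon bases, held at most 10.0 normalized counts.

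The *PTGS2* promoter is shown as the only one of the 9 with a TATA box in the form TATAAA on the gene's own strand. The 250 bases before the start, chr1:186680424-186680673 on GRCh38.p14, minus strand, read as follows, with that match in capitals.
PTGS2: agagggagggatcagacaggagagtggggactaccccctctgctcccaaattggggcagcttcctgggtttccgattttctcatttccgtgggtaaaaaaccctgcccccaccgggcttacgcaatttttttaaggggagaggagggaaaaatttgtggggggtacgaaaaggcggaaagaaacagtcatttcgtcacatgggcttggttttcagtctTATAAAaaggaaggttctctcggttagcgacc
A window of *PTGS1* held the same letters on the other strand, and 1 of 3 windows of *PTGES2* held the E-box.

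In HCT116, *PTGES* was the only one of the 8 genes tested that passed. WT libraries had 589 and 479 in WT 4 and 533 and 417 in WT 6, and KO libraries had 1145 and 1210.4 in KO 44 and 745 and 645 in KO 47. All KO libraries were above all WT libraries, and *PTGES* rose by 0.85 on the log2 scale (SE 0.21, adjusted p = 0.0191), from 504 ± 73.7 to 936 ± 283. In HCT116 14.0% of 15404 tested genes passed, 8.05% higher and 5.93% lower in KO. KO 44 exceeded KO 47 by 0.76 on the log2 scale (SE 0.17, adjusted p = 0.0219), where 7.16% of tested genes passed, whereas none of the 8 genes passed between WT 4 and WT 6 in limma or in edgeR (1, *PTGS1*, had an unadjusted p under 0.05), where 2.61% did. In HCT116 the rounds paired the libraries, and with the round as a block the rise kept its call (adjusted p = 0.0207). With that block *PTGS1* also passed, in the comparison of KO 44 with KO 47 at 0.59 (adjusted p = 0.0294) and in that of WT 4 with WT 6 at −0.73 (adjusted p = 0.0131). Over all genes, the block moved the number that passed from 1103 to 3317 between the KO clones. Between the WT clones it moved from 402 to 2501. The rise of *PTGES* in HCT116 lost its call in 8 of 22 alternatives, among them clones as units (adjusted p = 0.154) and leaving out clone WT 4 or WT 6 (adjusted p = 0.0542 and 0.144). Without clone KO 44 it was 0.47 (adjusted p = 0.131), and without library KO 44A, KO 44B, WT 4B or WT 6B the adjusted p was 0.0538, 0.0544, 0.0544 and 0.0598.

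In SW480, *PTGES* rose by a smaller amount. WT libraries had 199 to 236 normalized counts and KO libraries 249 to 366, a rise of 0.47 on the log2 scale (SE 0.13, adjusted p = 0.0142). It was 0.31 without KO 21 (adjusted p = 0.0716) and lost its call also with the clone as a random effect (adjusted p = 0.0723 with an estimated correlation), with clones as units (adjusted p = 0.125) and without WT 4 (adjusted p = 0.0962). In HT29 the clones of both genotypes stood apart for *PTGES*. WT libraries had 14.4 and 6.08 in WT 11 and 77.1 and 61.4 in WT 40, and KO libraries had 514 and 354 in KO 28 and 13.3 and 13.0 in KO 38. KO 28 exceeded KO 38 by 4.92 on the log2 scale (SE 0.43, adjusted p = 3.27e-04), WT 11 minus WT 40 was −2.74 (adjusted p = 0.00728), and the KO against WT difference of 1.53 on the log2 scale (SE 1.36, adjusted p = 0.600) did not pass.

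*PTGES2* and *PTGES3* had small differences in every line. *PTGES2*, a membrane-associated synthase, had KO against WT differences of −0.032, −0.080 and −0.0047 in HT29, HCT116 and SW480, and its 95% intervals reached from −0.42 to 0.36 in HT29 and from −0.18 to 0.17 in SW480. *PTGES3* had 19451 to 21164 normalized counts in SW480 WT and 16991 to 19283 in SW480 KO, and fell by 0.17 on the log2 scale (SE 0.062, adjusted p = 0.0454). This fall lost its call in 13 of 22 alternatives, among them the round as a block (adjusted p = 0.0634) and leaving out any SW480 library other than KO 17B (adjusted p between 0.0539 and 0.110). In HT29 and HCT116 the differences of *PTGES3* were 0.10 (adjusted p = 0.812) and −0.069 (adjusted p = 0.632). Processed copies of *PTGES3* exist, of which *PTGES3P1* held a mean of 286 normalized counts, so that some reads of the gene could have been assigned to its copies.

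**Figure D2:**
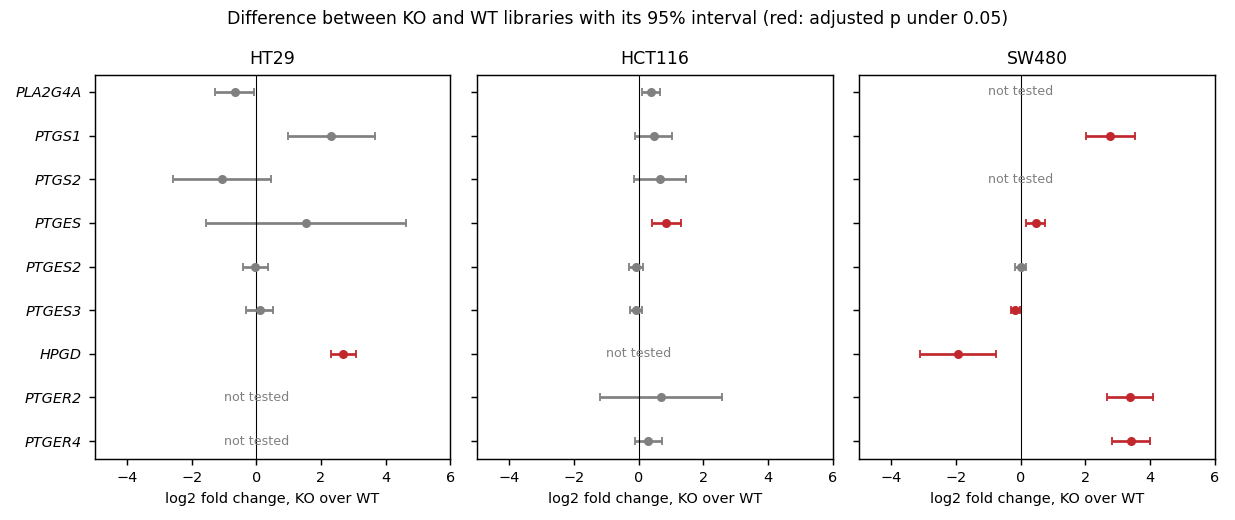
Difference between KO and WT libraries of HT29, HCT116 and SW480 for the 9 genes (log2 fold change on the horizontal axis), with 95% intervals. Red points passed the test (adjusted p under 0.05), grey points did not, and genes too low to test are marked. *HPGD* is at 2.69 in HT29 and at −1.95 in SW480, and both receptors are above 3 in SW480.

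Both receptors, which couple prostaglandin E2 to cyclic AMP, rose in SW480 KO clones. *PTGER2* had 4.04 and 3.68 in WT 4 and 3.86 and 10.8 in WT 5, and 57.4 and 63.3 in KO 17 and 69.1 and 58.6 in KO 21. *PTGER4* had 10.1 and 4.59 in WT 4 and 7.72 and 5.87 in WT 5, and 64.0 and 85.3 in KO 17 and 92.4 and 92.2 in KO 21. For both genes every KO library lay above every WT library. *PTGER2* rose by 3.38 on the log2 scale (SE 0.32, adjusted p = 1.22e-05) and *PTGER4* by 3.42 on the log2 scale (SE 0.27, adjusted p = 2.77e-06). Ratios of the group means were 11.1 and 11.8. Neither gene passed between the KO clones, at −0.077 (95% interval −0.98 to 0.82) for *PTGER2* and −0.32 (−1.12 to 0.48) for *PTGER4*, and both calls were kept in all 21 alternatives that could be computed, also with clones as units. Both genes reached the level for testing only through their KO libraries, where they were high, so that being tested depended on the rise itself. The alternative that could not be computed asked for at least 10 normalized counts in every library. The WT values rest on few reads, 23 over the 4 libraries for *PTGER2* and 29 for *PTGER4*. Along with the receptors, endothelial markers summed to 118 to 234 in SW480 KO and 10.6 to 27.4 in SW480 WT, with *CDH5* and *KDR* at 3 reads or fewer in every library of both groups and *VWF* risen, and immune markers to 176 to 254 and 52.4 to 70.8, with *CD14* and *LYZ* risen and *PTPRC* and *CD68* at 3 reads or fewer throughout. The part of these markers in the receptor differences was not tested.

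In HCT116, *PTGER4* was already at this level in WT. It had 78.0 and 81.7 in WT 4 and 73.0 and 57.1 in WT 6, and 88.4 and 82.9 in KO 44 and 85.6 and 98.0 in KO 47, which gave 0.30 on the log2 scale (SE 0.19, adjusted p = 0.327) although the groups did not overlap. In the same line, WT libraries spanned 0 to 22.2 normalized counts for *PTGER2* and KO libraries spanned 2.85 to 18.7, a difference of 0.69 on the log2 scale (SE 0.86, adjusted p = 0.643). In HT29 neither receptor reached the level for testing. *PTGER4* had 0 to 13.4 normalized counts in WT and 0 to 16.1 in KO, and *PTGER2* had 3 reads in all over the WT and 5 over the KO libraries.

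The promoters of both receptors are shown because these genes rose together in SW480. The 250 bases before their starts, chr14:52314062-52314311 and chr5:40679665-40679914 on GRCh38.p14, both plus strand, read as follows. They are in lower case throughout, as no motif named above matched.
PTGER2: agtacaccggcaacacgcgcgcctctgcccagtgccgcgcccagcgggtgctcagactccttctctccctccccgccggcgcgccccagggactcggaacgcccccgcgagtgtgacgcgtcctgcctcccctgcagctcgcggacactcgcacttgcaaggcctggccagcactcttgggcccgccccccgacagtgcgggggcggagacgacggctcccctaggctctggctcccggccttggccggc
PTGER4: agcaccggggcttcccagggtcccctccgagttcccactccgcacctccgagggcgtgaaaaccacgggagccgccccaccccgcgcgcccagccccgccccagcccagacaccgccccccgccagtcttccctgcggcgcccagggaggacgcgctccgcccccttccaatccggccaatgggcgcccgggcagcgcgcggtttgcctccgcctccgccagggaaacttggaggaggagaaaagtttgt
They were 74.0% and 72.8% GC and held none of the 4 motifs.

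In HCT116, *PLA2G4A* had 407 and 443 in WT 4 and 403 and 410.3 in WT 6, and 478 and 610.4 in KO 44 and 511 and 592 in KO 47. The groups did not overlap, and the difference of 0.39 on the log2 scale (SE 0.12, adjusted p = 0.0566) lay just outside the threshold. With the round as a block, which in HCT116 paired the libraries, it passed with an adjusted p of 0.0365. In HT29, WT libraries had 883 to 1649 and KO libraries 570.3 to 1033 normalized counts, a difference of −0.66 on the log2 scale (SE 0.27, adjusted p = 0.264). In SW480 the gene stayed at 3 reads or fewer in each library of both genotypes and was not tested.

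The KO effects were compared between lines in 1 fit over all 24 libraries. Between HT29 and SW480, where 15.8% of all genes differed, 3 of the 9 genes differed, namely *HPGD*, *PTGER2* and *PTGER4*. The effect on *PTGER4* in HT29 minus that in SW480 was −3.21 (adjusted p = 0.0204), and for *PTGER2* it was −3.16 (adjusted p = 0.0386), a call that was lost in 15 of 29 alternatives. Between HCT116 and SW480, where 13.2% of all genes differed, the effects on *HPGD* (3.94, adjusted p = 0.00209), *PTGER4* (−3.12, adjusted p = 0.0279), *PTGS1* (−2.30, adjusted p = 0.0189) and *PLA2G4A* (1.25, adjusted p = 0.0378) differed. The values of *PLA2G4A* in SW480 and of *HPGD* in HCT116 rest on few reads, and the *PLA2G4A* call was lost in 17 of 29 alternatives. Few reads also underlie both receptors in HT29, where neither was tested within the line, and both receptors and *PTGS1* in SW480 WT. In HT29, *PTGER4* had 23 reads over the WT and 27 over the KO libraries, and *PTGS1* had 27 over the SW480 WT libraries. With clones as units these 4 differences for HCT116 minus SW480 lost their call (adjusted p = 0.0583 for *HPGD*, 0.275 for *PTGS1*, 0.228 for *PTGER4* and 0.343 for *PLA2G4A*), and for HT29 minus SW480 the receptors did not pass (adjusted p = 0.140 for *PTGER2* and 0.183 for *PTGER4*). These comparisons share the SW480 libraries. Between HT29 and HCT116, where 7.25% of all genes differed, none of the 9 passed in limma, 3 had an unadjusted p under 0.05 (*PTGS1*, *PTGS2* and *PLA2G4A*), and 1 passed in edgeR (*PLA2G4A*). For *PTGS1* that difference was 1.84 (95% interval 0.50 to 3.19, adjusted p = 0.0881).

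Lists of 7 related gene groups were counted. In HT29, where 2.56% of all tested genes passed, none of their tested members passed in KO against WT, which were 7 of 19 phospholipases A2, 5 of 8 other prostanoid synthases, 4 of 5 genes of transport and later breakdown, 3 of 9 lipoxygenase genes, 11 of 13 cyclic AMP response genes and 8 of 9 genes for RNA-binding factors of *PTGS2* mRNA, while none of 7 other prostanoid receptors was tested. In limma 10 of these 38 genes had an unadjusted p under 0.05, and edgeR was not run on the lists. The share of all tested genes under that unadjusted threshold was not counted, and the 2.56% is for adjusted p. Median log2 differences in HT29 were 0.69 for phospholipases, 0.72 for other synthases, 0.024 for transport and breakdown, 0.035 for lipoxygenases, 0.32 for cyclic AMP response genes and −0.014 for the mRNA factors, beside 0.031 for all tested genes. In HCT116, where 8.05% of all tested genes rose and 5.93% fell, the phospholipase *PLA2G7*, which cleaves platelet-activating factor, rose from 29.9 ± 13.0 to 146 ± 60.5 normalized counts, by 2.27 (SE 0.35, adjusted p = 0.00177), as the only one of 6 tested phospholipases. The exporter *ABCC4*, which carries prostaglandins out of cells, fell from 2158 ± 513 to 1088 ± 41.1 and was the only one of 4 in its list at a log2 difference of −0.96, named after its values were seen. The WT clones of HCT116 stood apart for *ABCC4*, which passed as lower in WT 4 than in WT 6. It was the only one of these 4 genes to do so. Of 12 tested cyclic AMP response genes, 3 fell and none rose in HCT116. They were the immediate response transcription factors *NR4A2* (294 ± 123 to 116 ± 30.3) and *FOSB* (80.8 ± 45.5 to 26.7 ± 6.45), and *PDE4B*, which breaks down cyclic AMP and fell from 3257 ± 608 to 122 ± 132, by 6.05 (SE 1.23, adjusted p = 0.0217). The KO clones stood apart for *PDE4B*, by −4.53 on the log2 scale for KO 44 minus KO 47 (adjusted p = 1.10e-06). Between WT 4 and WT 6 of HCT116, *NR4A2* and *FOSB* each had an unadjusted p under 0.05. In that comparison 2 of the 12 genes passed, beside 2.61% of all tested genes. *ZFP36*, which destabilizes *PTGS2* mRNA among others, rose from 458 ± 33.6 to 1033 ± 229.9. Median differences in HCT116 were 0.49 for phospholipases, 0.58 for other synthases, 0.034 for other receptors, 0.34 for transport and breakdown, 0.043 for lipoxygenases, −0.40 for cyclic AMP response genes and −0.22 for the mRNA factors, beside −0.014 for all tested genes.

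In SW480 more of these genes passed, as did 48.1% of all tested genes. Of 7 tested phospholipases A2, 3 rose and 1 fell. *PLA2G7* rose from 34.9 ± 3.72 to 303 ± 48.9, *PLA2G4C* from 14.6 ± 4.65 to 65.5 ± 22.2 and *PLA2G16* from 595 ± 60.4 to 2349.7 ± 318, whereas *PLA2G4D* fell from 331 ± 101 to 26.5 ± 7.48. Among 6 tested synthases of other prostanoids, 4 rose and none fell. *AKR1C3*, which makes prostaglandin F2α, went from 5.87 ± 3.86 to 115 ± 24.1, a rise of 4.31 (SE 0.48, adjusted p = 4.11e-05), and *PTGDS*, a prostaglandin D synthase, from 12.4 ± 10.4 to 38.0 ± 7.62. The WT clones stood apart for *PTGDS*, the only 1 of these 6 genes that passed between WT 4 and WT 5, where 8.88% of all tested genes passed. *SLCO2A1*, described below, had an unadjusted p under 0.05 between the WT clones and also between the KO clones. The thromboxane receptor *TBXA2R*, the only other receptor tested, rose by 1.64 (SE 0.30, adjusted p = 0.00118). *SLCO2A1*, the transporter that takes prostaglandins up into cells before HPGD acts on them, rose from 23.9 ± 17.9 to 332 ± 82.2, by 4.01 (SE 0.47, adjusted p = 7.35e-05), in the line in which *HPGD* fell, and 1 of the 5 genes of its list fell, *ZADH2* (−0.36), named after its values were seen. Of 6 tested lipoxygenase genes, 2 rose, and *ALOX5AP*, needed for leukotriene synthesis, went from 24.7 ± 5.78 to 229.9 ± 128, and *ALOXE3* from 32.9 ± 9.17 to 85.3 ± 8.20. The KO clones stood apart for *ALOX5AP*, by −1.25 on the log2 scale for KO 17 minus KO 21 (adjusted p = 0.00182), and for *FOS*, described next, by −1.05 (adjusted p = 7.01e-06). Of 12 tested cyclic AMP response genes, 4 rose and 4 fell. *PDE4D*, a phosphodiesterase, fell from 16935 ± 797 to 388 ± 29.2, and the immediate response genes *FOS* and *NR4A1* fell by 3.05 (SE 0.26, adjusted p = 8.48e-06) and 2.42 (SE 0.18, adjusted p = 1.95e-06), while *AREG*, an EGF receptor ligand, rose by 3.05 (SE 0.31, adjusted p = 1.85e-05). Of 8 tested factors of *PTGS2* mRNA, 2 rose and 3 fell, all by less than 1. The medians of the lists, beside −0.0042 for all tested genes of SW480, were 0.10 for phospholipases, 0.74 for other synthases, 0.28 for transport and breakdown, 0.26 for lipoxygenases, −0.22 for cyclic AMP response genes and −0.098 for the mRNA factors.

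Across the 12 clones, the mean log2 levels of *PTGS2* were most like those of *EIF3H* (Pearson's r = 0.990), *CHRAC1* (0.989) and *CASC9* (0.986) among 18609 genes, and *ALDH16A1* (0.973) and *RLN2* (0.969) were among the 3 most like *HPGD*. The clones fall into 3 lines, and the values are given as a description.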

How the data were processed

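RNA from 24 libraries was prepared with a TruSeq kit that does not mark strand. Per the labels, the authors used STAR 2.7.5b for alignment to GRCh37 and featureCounts 2.0.1 for reads per gene. The annotation used for counting is not given in the sources used here. The deposited values per library are a signal, namely gene counts that the authors divided by 1 DESeq2 size factor per library, and whole reads were recovered from them. The deposited tables of the authors' own comparisons (fold changes and p-values) were not used.

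Because the values are not counts, limma 3.58.1 (trend, robust) was run on log2 of the value plus a pseudocount of 1, for genes with at least 10 in at least 4 libraries, with Benjamini-Hochberg adjustment over all tested genes and a threshold of 0.05. Differences between lines used all 24 libraries. Alternatives used edgeR 4.0.16 and DESeq2 1.42.0 on recovered reads, pseudocounts of 0.1 and 5, other filters, the round as a block, clones as units or random effect, and each library or clone left out. Rounds A and B were checked for pairing by correlating, across genes, their differences between clones. All 6 clone pairs of HCT116 exceeded 0.1 (0.182 to 0.374), against 2 of 6 in HT29 and 1 of 6 in SW480. The test was checked on simulated data.

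Exon lengths came from GENCODE on GRCh37, and promoters from RefSeq on GRCh38.p14, where all 9 genes matched. Of 104 listed symbols 103 matched an identifier. All 9 genes are named in every library. Of the other lists, genes with an adjusted p under 0.05 were counted, and values were given for at most 4 per list with an absolute log2 difference over 1, the largest first. The 3 genes with the highest Pearson's r over clones were named for *PTGS2* and *HPGD*, except 1 that is not reported here. The genes, lists and rules were chosen with earlier results of these data known. Versions were R 4.3.3, Python 3.11.15 and matplotlib 3.10.9.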

Additional observations from a re-analysis of the deposited data

Results flagged for a closer look

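*PTGER2* in SW480 WT 5B had 10.8 normalized counts, far from the other SW480 WT libraries, which had 3.68 to 4.04. These values rest on few reads, 11 in WT 5B and 4 in each of the others. This was the only one of 49 groups of 4 libraries with such an outlying value, where chance gives about 1 in 20.

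In 7 cases the KO effects on a gene differed between lines in the test of the difference itself. Over all tested genes, 15.8% differed for HT29 minus SW480 and 13.2% for HCT116 minus SW480. With clones as units, only the *HPGD* difference for HT29 minus SW480 kept its call (adjusted p = 0.0265). For HT29 minus SW480 the differences on the log2 scale were 4.63 for *HPGD*, −3.16 for *PTGER2* and −3.21 for *PTGER4*. Neither receptor reached the level for testing within HT29. For HCT116 minus SW480 they were −2.30 for *PTGS1*, 3.94 for *HPGD*, −3.12 for *PTGER4* and 1.25 for *PLA2G4A*, whose SW480 libraries all held 3 reads or fewer.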

How the results depend on the processing

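Of 1616 values over 69 results, 1452 kept their direction and their side of the threshold, or for counts stayed within 1.5 times, 116 were weaker, 31 stronger and 17 reversed. All reversed values belong to differences that did not pass. The causes were not tested except where the setting itself has fewer samples or genes. With 2 clones per group, clones as units leave few degrees of freedom, and counts under 10 in several SW480 and HT29 libraries limit *PTGS2*, *PTGER2*, *PTGER4* and *PLA2G4A* there.

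In the main setting 1 of 7 tested genes passed in HT29, 1 of 8 in HCT116 and 6 of 7 in SW480. Over all tested genes the shares were 2.56%, 14.0% and 48.1%. With clones as units, 0 of all genes passed in HT29, 426 of 15404 in HCT116 and 3789 of 16325 in SW480. For the differences between lines given below, the main shares of all genes were 7.25%, 15.8% and 13.2%, in the order given. The number of the 9 genes that passed in KO against WT changed as follows. In HT29 it was 1, but 0 with clones as units, 2 in DESeq2 (*PTGS1* and *HPGD*), 2 without clone KO 38 (*PTGS1* and *HPGD*) and 2 without clone WT 11 (*PTGS2* and *HPGD*). In HCT116 it was 1, but 2 in edgeR with TMM, in edgeR with RLE and in DESeq2 (*PTGES* and *PLA2G4A* each time), 2 without a filter (*PTGES* and *HPGD*), and 0 with clones as units and without clone KO 44, WT 4 or WT 6. In SW480 it was 6, but 3 with clones as units (*PTGS1*, *PTGER2* and *PTGER4*), 3 with at least 10 in every library (*PTGES*, *PTGES3* and *HPGD*), a filter that leaves out the others, 4 with the clone as a random effect (*PTGES* and *PTGES3* lost, the latter at an adjusted p of 0.171), 4 without clone KO 21 or WT 4 (the same 2 lost), 4 without clone WT 5 (*PTGES3* and *HPGD* lost), 5 without a filter (*HPGD* lost) and 5 to 6 leaving out 1 library. For HT29 minus HCT116 it was 0, but 1 in edgeR and with a pseudocount of 5 (*PLA2G4A*). For HT29 minus SW480 it was 3, but 1 with a pseudocount of 0.1 and with clones as units (*HPGD*). For HCT116 minus SW480 it was 4, but 2 with a pseudocount of 0.1 (*PTGS1* and *HPGD*) and 0 with clones as units. Over all genes DESeq2 passed 1238 in HT29, against 382 in limma.

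With the round as a replicate block, the count was 2 in HCT116 KO against WT (*PTGES* and *PLA2G4A*), 2 for HCT116 KO 44 against KO 47 (*PTGS1* and *PTGES*), 1 for HCT116 WT 4 against WT 6 (*PTGS1*), 2 for SW480 KO 17 against KO 21 (*PTGES2* and *HPGD*) and 1 for SW480 WT 4 against WT 5 (*HPGD*). Over all genes the block moved the HCT116 clone comparisons from 1103 to 3317 and from 402 to 2501. Without the block, 28.0% of all tested genes passed between the KO clones and 8.88% between the WT clones of SW480. In HT29 and SW480 the rounds did not meet the check for pairing, and there the block also took the call from *PTGES3* in SW480 (adjusted p = 0.0634). In the fit over all lines it took the calls of *PTGES* and *PTGER2* between WT HT29 and WT SW480 (adjusted p = 0.0534 and 0.0619) and of *PLA2G4A* for HCT116 minus SW480 (adjusted p = 0.0595).

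Leaving out 1 library gave counts of 0 to 1 in HCT116 KO against WT, 0 to 1 for HT29 minus HCT116, 2 to 4 for HCT116 minus SW480 (2 without HCT116 WT 4B), 1 to 4 for HT29 KO 28 against KO 38 (1 without KO 28A, 4 without KO 38A), 0 to 4 for HT29 WT 11 against WT 40 (0 when WT 40A, 1 when WT 40B and 4 when KO 38A or KO 38B was absent), 0 to 1 for HCT116 KO 44 against KO 47 (0 without KO 44A, KO 44B or KO 47B) and 1 to 2 for SW480 KO 17 against KO 21 (2 without KO 21B, WT 4A or WT 4B). For HT29 minus HCT116 the 1 was *PTGS1* without HT29 KO 38A, KO 38B or WT 40B, and *PLA2G4A* without SW480 KO 17A. With every library kept, 16.0% of all tested genes passed between the KO clones and 9.02% between the WT clones of HT29. The share was 7.16% between the KO clones of HCT116 and 28.0% between those of SW480.

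Reversed log2 differences in HT29 were −0.93 for *PTGES* and 0.056 for *PTGES2* without clone KO 28, and 0.16 for *PTGS2*, 0.10 for *PTGES2* and −0.044 for *PTGES3* without clone WT 40. In HCT116 that of *PTGES3* was 0.0017 without clone WT 6. In SW480 that of *PTGES2* was 0.098 without clone KO 17 and 0.030 without clone WT 4. Leaving out 1 library, the ranges were −0.20 to 1.31 for *PTGER2* in HCT116, −0.14 to 0.055 for *PTGES2* in HT29, −0.044 to 0.038 for *PTGES2* in SW480 and −0.032 to 0.18 for *PTGES3* in HT29.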
